A study of Mus musculus with 2 samples.

Results

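The mitochondrial ribosomal protein genes are the nuclear protein-coding genes of the GENCODE M21 basic annotation whose symbols begin with Mrpl or Mrps and a number, 78 of 21938 nuclear protein-coding genes. They were examined for binding of the transcription factor YY1 by ChIP-seq in muscle stem cells (MuSCs) of dystrophic mice. A gene was counted as bound when the summit of a YY1 peak, its base of highest enrichment, lay within 1000 bp of any of its transcript starts. By this rule 29 members were bound and 49 were not.

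The mitochondrial ribosome is built in the matrix from rRNAs encoded by mitochondrial DNA and from proteins that are encoded in the nucleus and imported. Its large subunit forms peptide bonds, and its small subunit reads the mRNA. In mammals it translates only the mRNAs of mitochondrial DNA, whose products are core subunits of the respiratory chain and ATP synthase. YY1 is a zinc-finger protein that binds DNA at a short motif with the core ATGGC and occupies many active promoters, and in muscle it is known as a regulator of stem cells and of mitochondrial genes.

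The series holds 1 YY1 library and 1 background library. According to the study's text and reporting summary, MuSCs were freshly isolated from Ctrl mdx mice and the cells of several mice were pooled. The Ctrl genotype was Pax7CreERT2/R26YFP; Yy1+/+; mdx: a CreERT2 allele driven by Pax7, the marker gene of MuSCs, a YFP reporter, both wild-type Yy1 alleles, and the Dmd mutation of C57BL/10 ScSn DMDmdx mice, which lack dystrophin. The labels describe cultured cells and the design text wild-type MuSCs, so the state of the cells is given here as the study's text states it. Tamoxifen treatment and the age of these mice are not given for this library in the sources used here. The labels give the background library as input, the methods give it as input (IgG), and the study's reporting summary lists an IgG ChIP. It was not analysed here. No YY1-deleted MuSCs are part of the series, so these data describe where YY1 was detected and do not measure expression of the genes.

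Because the series has no replicates, spread between mice or libraries could not be given, and no test between conditions was possible. The intervals given for shares are 95% exact Clopper-Pearson intervals that cover counting error only. The list holds 4681 peaks with 8 to 394 DNA fragments at the summit (median 14) and a fold enrichment of 1.49 to 14.4 (median 5.10). This fold is the number of fragments at the summit plus 1, divided by the local background plus 1. At this depth a gene without a peak is a gene at which no enrichment was detected.

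YY1 peaks were found at 37.2% of the mitochondrial ribosomal protein genes (29 of 78, interval 26.5 to 48.9%). Of all protein-coding genes, 18.8% were bound (4119 of 21938). The bound members were mostly genes of the large subunit. There 24 of 51 were bound, 47.1% (32.9 to 61.5%), and in the small subunit 5 of 26, 19.2% (6.55 to 39.4%). Small subunit proteins with other symbols are not in this count and are given below. The intervals of both subunits overlapped, and their difference was not tested. The subunit of each protein, and below its bacterial or mitochondrial origin, were assigned from general knowledge of the mammalian mitoribosome and not checked against a file. By this assignment Mrps30 and Mrps18a count with the large subunit, and neither was bound. Mrps36 was counted apart because its product is a subunit of the alpha-ketoglutarate dehydrogenase complex, and it was not bound.

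The bound genes of the large subunit were Mrpl2, Mrpl3, Mrpl12, Mrpl13, Mrpl14, Mrpl17, Mrpl18, Mrpl21, Mrpl28, Mrpl30, Mrpl32, Mrpl34 and Mrpl47, whose products have bacterial counterparts, and Mrpl39, Mrpl40, Mrpl41, Mrpl43, Mrpl44, Mrpl45, Mrpl48, Mrpl49, Mrpl54, Mrpl57 and Mrpl58, whose products are found only in mitochondrial ribosomes. These are 13 of 30 genes with a bacterial counterpart (43.3%, 25.5 to 62.6%) and 11 of 21 mitochondria-specific genes (52.4%, 29.8 to 74.3%). In the small subunit Mrps5, Mrps7 and Mrps24 were bound among 16 genes with a bacterial counterpart (18.8%, 4.05 to 45.6%). Of its 10 mitochondria-specific genes, Mrps18b and Mrps26 were bound (20.0%, 2.52 to 55.6%). Within each subunit the shares of both classes were close to each other, with overlapping intervals.

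No promoter peak was detected at 27 genes of the large subunit, 21 of the small subunit and Mrps36. In the large subunit these were Mrpl1, Mrpl4, Mrpl9, Mrpl10, Mrpl11, Mrpl15, Mrpl16, Mrpl19, Mrpl20, Mrpl22, Mrpl23, Mrpl24, Mrpl27, Mrpl33, Mrpl35, Mrpl36, Mrpl37, Mrpl38, Mrpl42, Mrpl46, Mrpl50, Mrpl51, Mrpl52, Mrpl53, Mrpl55, Mrps18a and Mrps30. In the small subunit they were Mrps2, Mrps6, Mrps9, Mrps10, Mrps11, Mrps12, Mrps14, Mrps15, Mrps16, Mrps17, Mrps18c, Mrps21, Mrps22, Mrps23, Mrps25, Mrps27, Mrps28, Mrps31, Mrps33, Mrps34 and Mrps35.

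**Figure D1:**
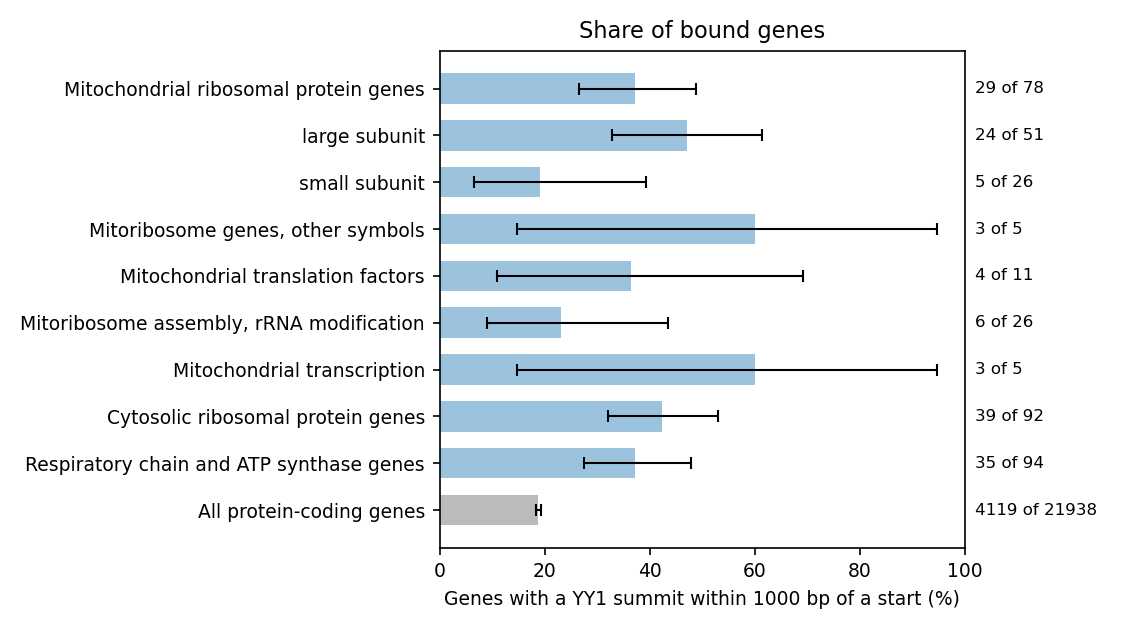
Share of genes with a YY1 summit within 1000 bp of a transcript start (x axis, percent) for the mitochondrial ribosomal protein genes, both subunits, related gene lists and all protein-coding genes (grey). Bars give the share, lines the 95% exact binomial interval for counting error, and the counts stand at the right: 24 of 51 large subunit genes and 5 of 26 small subunit genes were bound, beside 18.8% of all genes.

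Genes with neighbouring roles were counted through lists chosen by function, to be read beside the 18.8% of all protein-coding genes. Of the mitoribosome proteins that carry other symbols, 3 of 5 were bound. These were Dap3, which binds GTP, with a fold enrichment of 8.68, Ptcd3 with 5.13 and Chchd1 with 4.70, all proteins of the small subunit. Aurkaip1, also of the small subunit, and Gadd45gip1 of the large subunit were not bound. With these genes added, 8 of 30 genes of the small subunit (26.7%, 12.3 to 45.9%) and 24 of 52 genes of the large subunit (46.2%, 32.2 to 60.5%) were bound, so the contrast between subunits depends in part on the choice of genes by symbol. Mitochondrial translation factors were bound in 4 of 11 cases, the GTPases Guf1 and Gfm2, the ribosome recycling factor Mrrf and the release factor Mtrf1l, with fold enrichments of 4.34 to 5.44. Among genes listed for mitoribosome assembly and rRNA modification 6 of 26 were bound (23.1%, 8.97 to 43.6%), a share near that of all genes. They were Mtg1 (7.10), Lrpprc (7.04), Gtpbp10, Noa1, Ddx28 and Mterf3. Lrpprc and the unbound Slirp stand in this list although their products bind mitochondrial mRNAs. Of 5 genes for mitochondrial transcription, the bound ones were Tfam, which packages mitochondrial DNA (5.92), Tfb2m (6.31) and Mterf1a (7.06). The shares of the cytosolic ribosomal protein genes, 42.4% (39 of 92, 32.1 to 53.1%), and of the genes for the respiratory chain and ATP synthase, 37.2% (35 of 94, 27.5 to 47.8%), were like that of the mitochondrial ribosomal protein genes. Both families were taken by symbol, so that they include a few genes that are no structural subunits, such as Rps19bp1 and the Ndufaf assembly factors.

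Each bound member had 1 promoter peak, and the 29 peaks were all different, so no peak was shared between members. Their fold enrichment ran from 3.23 to 9.26 with a median of 5.35, beside 5.13 for all bound protein-coding genes. The fragments at the summit ran from 10 to 24 with a median of 15, the same median as for all bound genes. Members were thus bound at a larger share than all genes, but their peaks were of common height.

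The highest peak lay at Mrpl12, the stalk protein that recruits translation factors and also binds the mitochondrial RNA polymerase. Here 24 fragments stood over a local background of 1.70, a fold enrichment of 9.26, with the summit 6 bp downstream of the start. The value of Mrpl12 was higher than that of 98.1% of bound protein-coding genes, and 75 genes had a higher value. The peak (chr11:120484470-120484828, GRCm38) covers exon 1 and the sequence before it. The 200 bases before the start are shown because the strongest member peak is centred at their end, with the 15 CpG dinucleotides in capitals (GC content 58.5%).
Mrpl12, chr11:120484413-120484612, plus strand: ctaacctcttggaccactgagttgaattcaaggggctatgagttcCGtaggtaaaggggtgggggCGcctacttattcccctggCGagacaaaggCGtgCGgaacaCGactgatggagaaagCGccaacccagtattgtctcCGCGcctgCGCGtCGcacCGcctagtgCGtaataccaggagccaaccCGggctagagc
Neither AANATGGC nor any of the other motifs searched below occurred in the promoter window of Mrpl12.

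Mrpl40 came next with 18 fragments and a fold enrichment of 7.49. Mrpl49 had 23 fragments and 6.76, and Mrpl39 had 19 fragments and 6.72. These are proteins added to the large subunit in mitochondria. Mrpl58, a peptidyl-tRNA hydrolase that became part of the large subunit, had 16 fragments and 6.70. At Mrpl2, a protein near the peptidyl transferase centre, 19 fragments gave 6.40. Mrpl45, which lies at the exit of the peptide tunnel, had 21 fragments and 6.20. Among the 10 highest were 2 genes of the small subunit, Mrps26 with 15 fragments and 6.31 and Mrps7 with 15 fragments and 5.93. Mrpl44 and Mrpl21 followed with the same values, 14 fragments over 1.54 and a fold enrichment of 5.92.

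The lowest values were at Mrpl28 (10 fragments, 3.70), at Mrpl3, another protein near the peptidyl transferase centre (13 fragments, 3.53), and at Mrpl17 (15 fragments, 3.23). The local background differed between these peaks. At Mrpl17 it was 3.95, so the same 15 fragments that gave a fold of 6.31 at Mrps26, where the background was 1.54, gave 3.23 there, with 1 added to both numbers. Within a few fragments such peaks cannot be ranked. The q-values of Mrpl17 (0.0101) and Mrpl28 (0.0144) were the largest of the members. The 13 bound mitochondria-specific genes of both subunits had a median fold enrichment of 5.92, and the 16 with a bacterial counterpart 5.03.

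**Figure D2:**
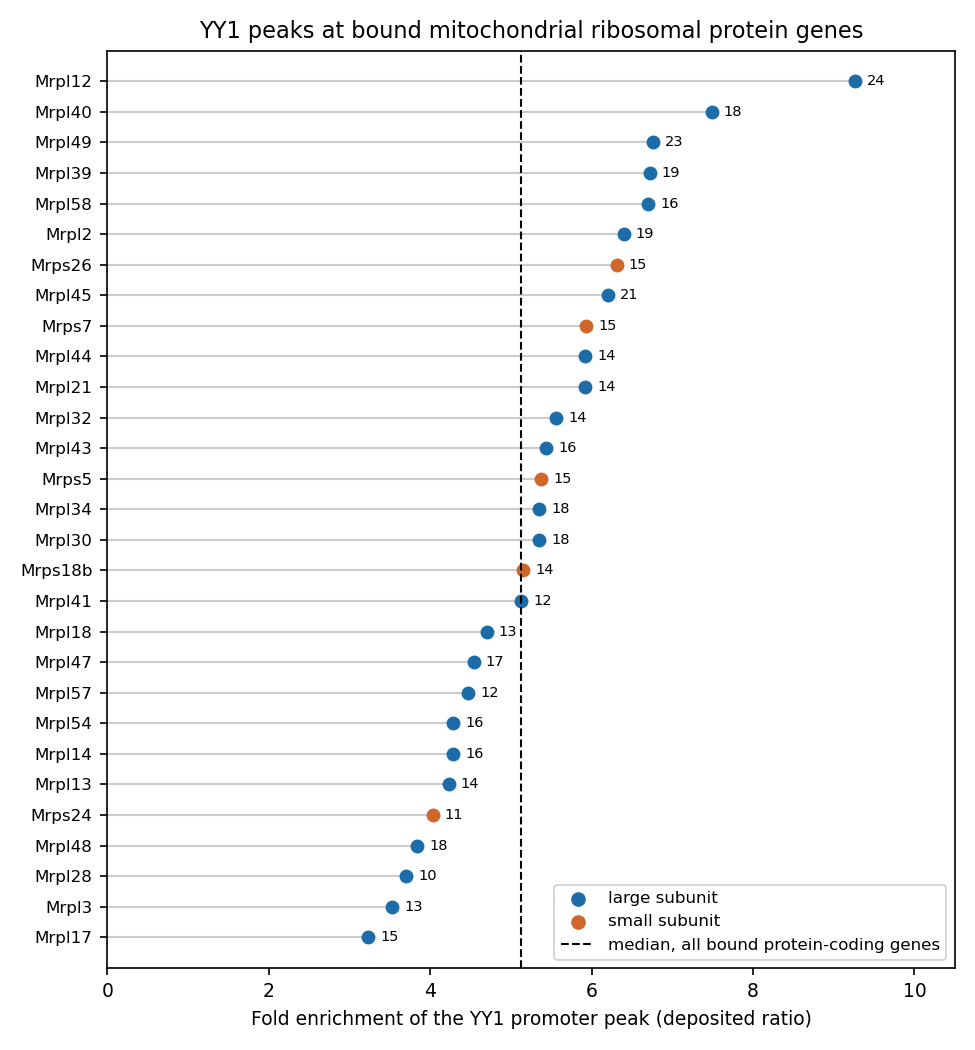
Fold enrichment over the local background (x axis, deposited ratio) of the YY1 promoter peak at each of the 29 bound members, by subunit. The numbers are fragments at the summit and the dashed line is the median of all bound protein-coding genes, 5.13, which falls inside the range of the members, 3.23 to 9.26.

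Summits lay close to the starts. The median summit of the bound members was 17 bp downstream of the nearest start in the direction of transcription, and that of all bound genes was 3 bp upstream. In 15 of 29 members (51.7%) the summit was within 100 bp of a start, beside 47.9% of all bound genes. Downstream summits were seen in 17 members and upstream summits in 12. The closest summits were at Mrpl58 (1 bp), Mrpl18 (4 bp) and Mrpl12 (6 bp). Only Mrpl48 (632 bp downstream) and Mrpl14 (747 bp upstream) had their summit more than 500 bp away.

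Between bound and unbound members there was an almost empty interval. Mrpl22, a protein that lines the peptide tunnel, was the unbound member with the nearest summit, 3160 bp upstream of its start and with a fold enrichment of 7.10. Of the others, 9 had their nearest summit at 5000 to 20000 bp, 21 at 20000 to 100000 bp and 18 farther away. The median distance of the 49 unbound members was 60.2 kb. The split of 29 and 49 therefore did not rest on summits near the edge of the promoter window.

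**Figure D3:**
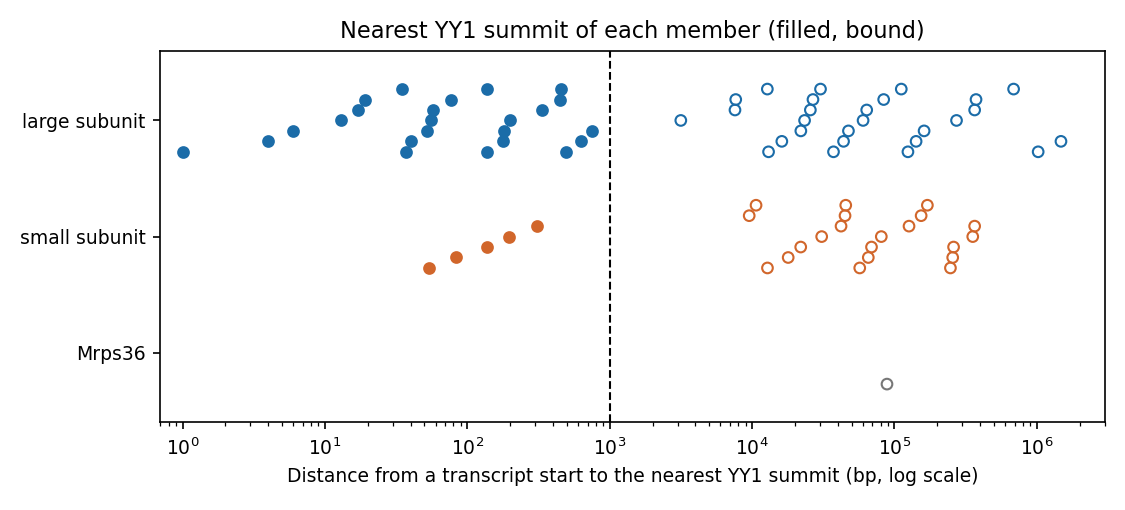
Distance from a transcript start to the nearest YY1 summit (x axis, bp, log scale) for each of the 78 members, by subunit, with bound members filled and the 1000 bp limit dashed. Vertical spread within a group only separates the points. Bound members reach up to 747 bp and the nearest unbound member, Mrpl22, lies at 3160 bp.

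Many of the member peaks also lay near an annotated start of another gene. Of the 29 member peaks, 19 had a start of another gene within 1000 bp of the summit (65.5%), beside 39.7% when counted over all bound protein-coding genes. In 18 cases that gene codes for a protein. The summit was nearer to the other gene in 10 of the 19 and nearer to the member in 9. For these peaks the ChIP signal cannot be assigned to either gene.

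These neighbours were named after they were seen. Mrpl43 shared its peak with Twnk, the helicase of mitochondrial DNA, with the summit 37 bp from Mrpl43 and 153 bp from Twnk. At Mrpl47 and Ndufb5, a subunit of complex I, the summit was 57 and 19 bp away. Mrpl49 and Fau, which encodes a cytosolic ribosomal protein fused to a ubiquitin-like protein, had it at 40 and 19 bp. The summit at Mrpl18 and Tcp1, a subunit of the cytosolic chaperonin, was at 4 and 20 bp. Mrpl32 and the proteasome gene Psma2 had it at 77 and 152 bp. Mrpl40 and the histone chaperone gene Hira had it at 337 and 133 bp. At Mrpl48 and Mrpl14 the other start was the nearer: Rab6a lay 21 bp from the summit and Tmem63b 684 bp.
The remaining shared peaks were those of Mrpl2 with Klc4, Mrpl13 with Mtbp, Mrpl21 with Ighmbp2, Mrpl30 with Mitd1, Mrpl41 with Pnpla7, Mrpl54 with Apba3, Mrpl57 with Ska3, Mrps5 with Zfp661, Mrps7 with Gga3 and Mrps18b with Ppp1r10. The peak of Mrps26 was shared with an antisense transcript, 4930473A02Rik. Among the highest members, Mrpl12, Mrpl39, Mrpl44, Mrpl45 and Mrpl58 had a peak of their own, whereas Mrpl21, with the same value as Mrpl44, did not.

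**Figure D4:**
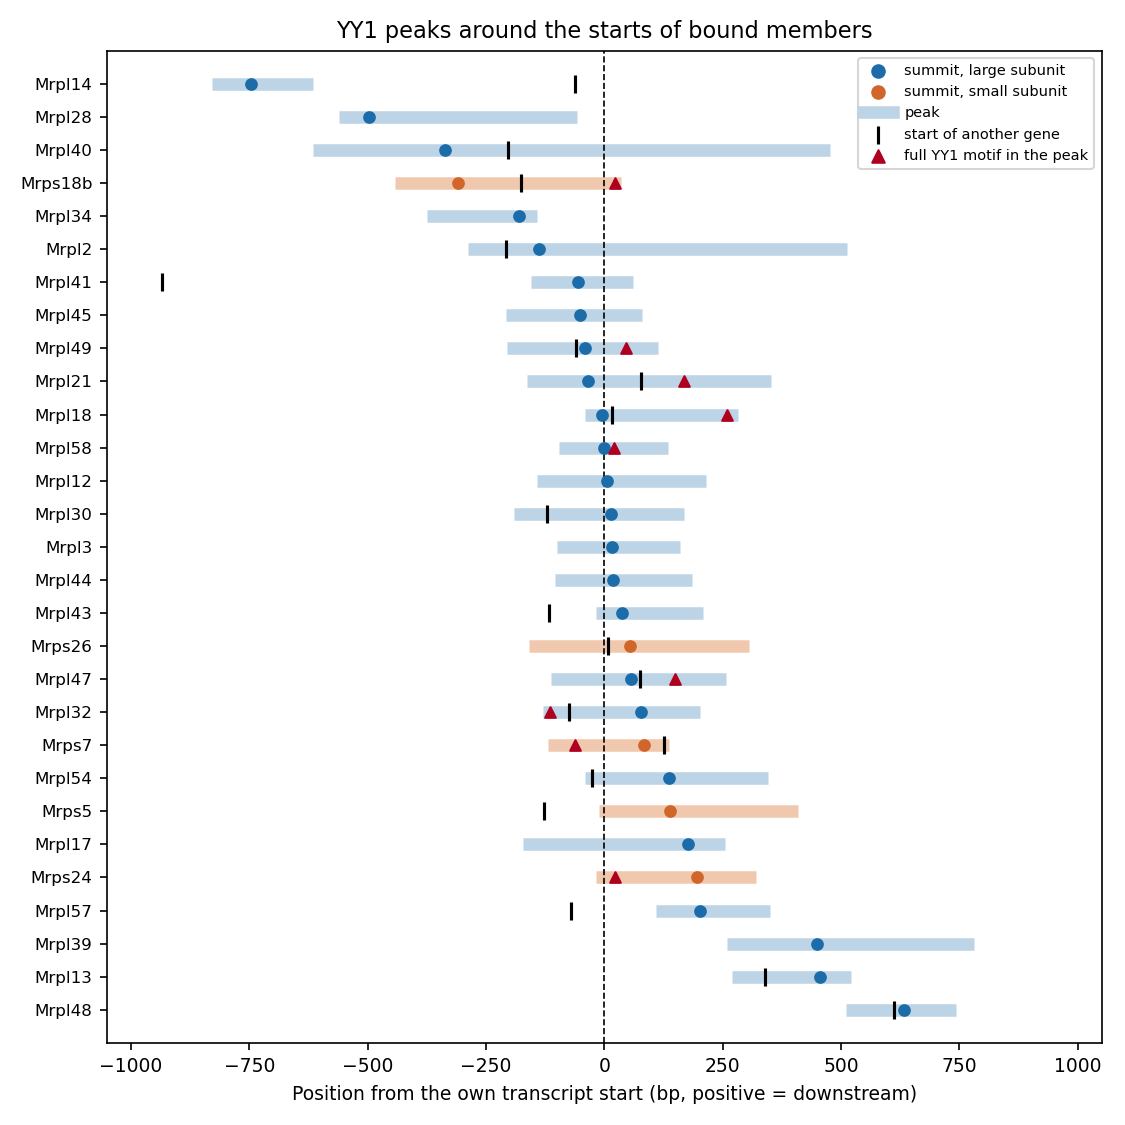
YY1 peaks (bars) and their summits (points) at the 29 bound members, placed by distance from the member's transcript start (x axis, bp, positive downstream), with the starts of other genes within 1000 bp of the summit (black ticks) and AANATGGC sites inside the peak (triangles). Summits run from 747 bp upstream at Mrpl14 to 632 bp downstream at Mrpl48.

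Head-to-head arrangement was common in this family whether or not a gene was bound. A divergent partner, meaning a start of another gene on the opposite strand within 1000 bp upstream, was present at 27 of 78 members (34.6%) and at 14.7% of all protein-coding genes. With such a partner 14 of 27 members were bound (51.9%, 31.9 to 71.3%), beside 39.1% of all genes with a partner. Without one 15 of 51 members were bound (29.4%, 17.5 to 43.8%), beside 15.3% of all genes without one. Genes whose opposite-strand neighbour starts downstream of their own start, so that both overlap, count as without a partner. Mrpl13, Mrpl47, Mrpl48, Mrps7 and Mrps26 are of this kind. A partner did not always come with a peak. Mrpl46 and Mrps11, members of both subunits whose starts lie 30 bp apart, were both unbound, as were Mrpl36 beside Ndufs6 and Mrps12 beside the mitochondrial seryl-tRNA synthetase gene Sars2.

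The promoters of this family were also rich in CpG. A 300-base promoter, 250 bases before to 50 bases after the most upstream transcript start, with an observed over expected CpG ratio of at least 0.6 was found at 71 of 78 members (91.0%) and at 46.4% of all protein-coding genes. Among genes with such a promoter, 38.0% of members (27 of 71, 26.8 to 50.3%) and 35.0% of all genes were bound. The distance between the family and all genes, 37.2% beside 18.8%, was thus much smaller within this class. With a CpG-rich promoter and a divergent partner, 13 of 26 members (50%) and 45.5% of all genes were bound. With a CpG-rich promoter and no partner the shares were 31.1% (14 of 45) and 31.5%. With a ratio below 0.6, 2 of 7 members (28.6%, 3.67 to 71%) and 4.75% of all genes were bound. Over all genes the share of bound genes moved with promoter class. The part of promoter class in the binding was not tested.

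The subunits were also counted within CpG-rich promoters. There 23 of 46 genes of the large subunit (50%, 34.9 to 65.1%) and 4 of 24 genes of the small subunit (16.7%, 4.74 to 37.4%) were bound, beside 35.0% of all such genes. With a divergent partner as well, 12 of 19 large subunit genes and 1 of 7 small subunit genes were bound. Without a partner these were 11 of 27 and 3 of 17. The intervals of both subunits overlap, and the difference was not tested.

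The YY1 motif AANATGGC (N is any base, both strands searched) was then related to the peaks. Within 100 bp of the summit it occurred at 3 of 29 member peaks (10.3%, 2.19 to 27.4%) and at 7.55% of all peaks at protein-coding promoters. In the respiratory chain and ATP synthase family it occurred at 9 of 35 peaks (25.7%, 12.5 to 43.3%). In the cytosolic ribosomal protein family it occurred at 3 of 39 (7.69%, 1.62 to 20.9%). The member peaks with the motif were those of Mrpl47 (fold enrichment 4.54), Mrpl49 (6.76) and Mrpl58 (6.70). At Mrpl58 the middle of the motif lay 24 bp from the summit, at Mrpl49 90 bp and at Mrpl47 97 bp. Within 250 bp of the summit it was found at 8 member peaks (27.6%), beside 15.8% of all promoter peaks, and in whole peaks at 9 (31.0%), beside 14.9%. Within 50 bp it was found at 1 (3.45%), beside 3.94%, so the comparison with all promoter peaks changed with the window. The core ATGGC alone, which is expected more often because it is shorter, lay within 100 bp of the summit at 14 member peaks (48.3%), beside 30.6% of all promoter peaks. No full motif lay in the peaks of Mrpl12, Mrpl40, Mrpl39, Mrpl2, Mrps26, Mrpl45 and Mrpl44, which are among the highest.

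The motif was also searched around the starts of all members, bound or not. Within 200 bp of a start it was present at 29 of 78 members (37.2%) and at 11.4% of all protein-coding genes. In 17 members (21.8%) the ATG inside the motif was the annotated start codon of the gene itself. This was so in 3.01% of all protein-coding genes, 6.52% of the cytosolic ribosomal protein genes and 19.1% of the genes for the respiratory chain and ATP synthase. Large subunit genes (11 of 51, 21.6%) and small subunit genes (6 of 26, 23.1%) had nearly the same share.

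The bound members of this kind are shown first, because here the YY1 motif and the first codons of the protein are the same bases. Each line gives 30 bases of GRCm38 on the strand of the gene with the motif in capitals. All 6 sites lie in exon 1, and translation begins at the ATG in the capitals.
Mrpl21, chr19:3283058-3283087, plus strand: gggactgtggaAACATGGCtgctgccatag
Mrpl45, chr11:97315860-97315889, plus strand: tttgcgcgagcAAAATGGCggcccccgtac
Mrpl49, chr19:6057721-6057750, minus strand: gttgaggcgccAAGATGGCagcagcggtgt
Mrpl58, chr11:115403761-115403790, plus strand: cctgggaggtgAACATGGCgaccgcctggg
Mrps18b, chr17:35916348-35916377, minus strand: cggtgtgcgtcAAGATGGCtgcccccttgc
Mrps24, chr11:5707647-5707676, minus strand: cgcgccggcccAAGATGGCgtggtccgcgt
In Mrpl58 the motif began 15 bp downstream of the nearest start, in Mrpl49 19 bp, in Mrps24 22 bp, in Mrps18b 23 bp, in Mrpl21 9 bp and in Mrpl45 155 bp. Only in Mrpl49 and Mrpl58 was it within 100 bp of the summit. In Mrps18b it lay 336 bp from the summit, and in Mrpl45 210 bp.

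The same arrangement was present at 11 members without a peak, shown for comparison. The form AAGATGGC was the most frequent in both sets, with 3 of 6 bound and 6 of 11 unbound genes.
Mrpl1, chr5:96210149-96210178, plus strand: ccggaacagtcAACATGGCggcggccgtaa
Mrpl27, chr11:94653788-94653817, plus strand: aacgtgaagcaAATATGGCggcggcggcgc
Mrpl35, chr6:71823743-71823772, minus strand: aggcaggctgcAAGATGGCggcttccatct
Mrpl38, chr11:116138762-116138791, minus strand: gacctgggggaAAGATGGCggcgccctggt
Mrpl46, chr7:78783013-78783042, minus strand: gggaagacagaAAGATGGCggcgcccgtag
Mrps10, chr17:47368893-47368922, plus strand: atcagggcaccAAGATGGCggcgcgcgcag
Mrps14, chr1:160195253-160195282, plus strand: gctgggcagacAACATGGCggcgtccgtgc
Mrps18a, chr17:46111004-46111033, plus strand: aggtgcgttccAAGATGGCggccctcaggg
Mrps27, chr13:99344789-99344818, plus strand: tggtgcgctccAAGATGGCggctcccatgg
Mrps30, chr13:118387219-118387248, minus strand: cgcggcgggcgAAAATGGCggcggccaggt
Mrps9, chr1:42851278-42851307, plus strand: ttcttacggccAACATGGCcgccccctgtg
The site of Mrps14 lies upstream of the nearest of its starts and in the exon of another transcript of the gene. The site of Mrpl46 is also within 200 bp of the start of Mrps11 on the opposite strand.

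Further sites of bound members did not lie on their own start codon. Those of Mrpl32, Mrpl47 and Mrps7 are shown on the strand that reads AANATGGC, which is opposite to the member in all 3 genes.
Mrpl32, chr13:14613261-14613290, plus strand: ctttccgggtaAAGATGGCagagcgcggtt
Mrpl47, chr3:32736979-32737008, plus strand: tgccctcactcAATATGGCctcctctagcg
Mrps7, chr11:115603852-115603881, minus strand: cgggcggctgcAATATGGCggaggcggaag
At Mrpl32 and Mrps7 the ATG is the start codon of the neighbouring genes Psma2 and Gga3, whereas at Mrpl47 it is no annotated start codon. Over all members, 31 sites were counted at 30 different positions. Of these, 17 lay on the start codon of the member, 6 on that of a neighbour and 8 on none. Besides Psma2 and Gga3 the neighbours were Ndufs6 at Mrpl36, Mrpl46 at Mrps11, Sars2 at Mrps12 and Ptcd2 at Mrps27.

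Such sites overlap with the code for the protein. Of 60 members that have a start codon within 200 bp of a start, 43 read ATGGC there (71.7%), which encodes methionine followed by alanine, beside 24.5% of all 13099 such genes. The bases AA at the head of the motif stood before the start codon of 18 members (30.0%) and of 16.1% of all such genes. Most mitochondrial ribosomal proteins carry an N-terminal targeting sequence, which is commonly rich in alanine.

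The motif near a start did not set bound members apart from unbound ones. Of 29 members with the motif within 200 bp of a start 9 were bound (31.0%, 15.3 to 50.8%), and of 49 without it 20 were bound (40.8%, 27.0 to 55.8%). Over all protein-coding genes these shares were 28.8% and 17.5%. With the motif on the own start codon 6 of 17 members (35.3%) and 29.4% of all such genes were bound. The intervals of the members overlap widely, so no direction can be read from them.

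**Figure D5:**
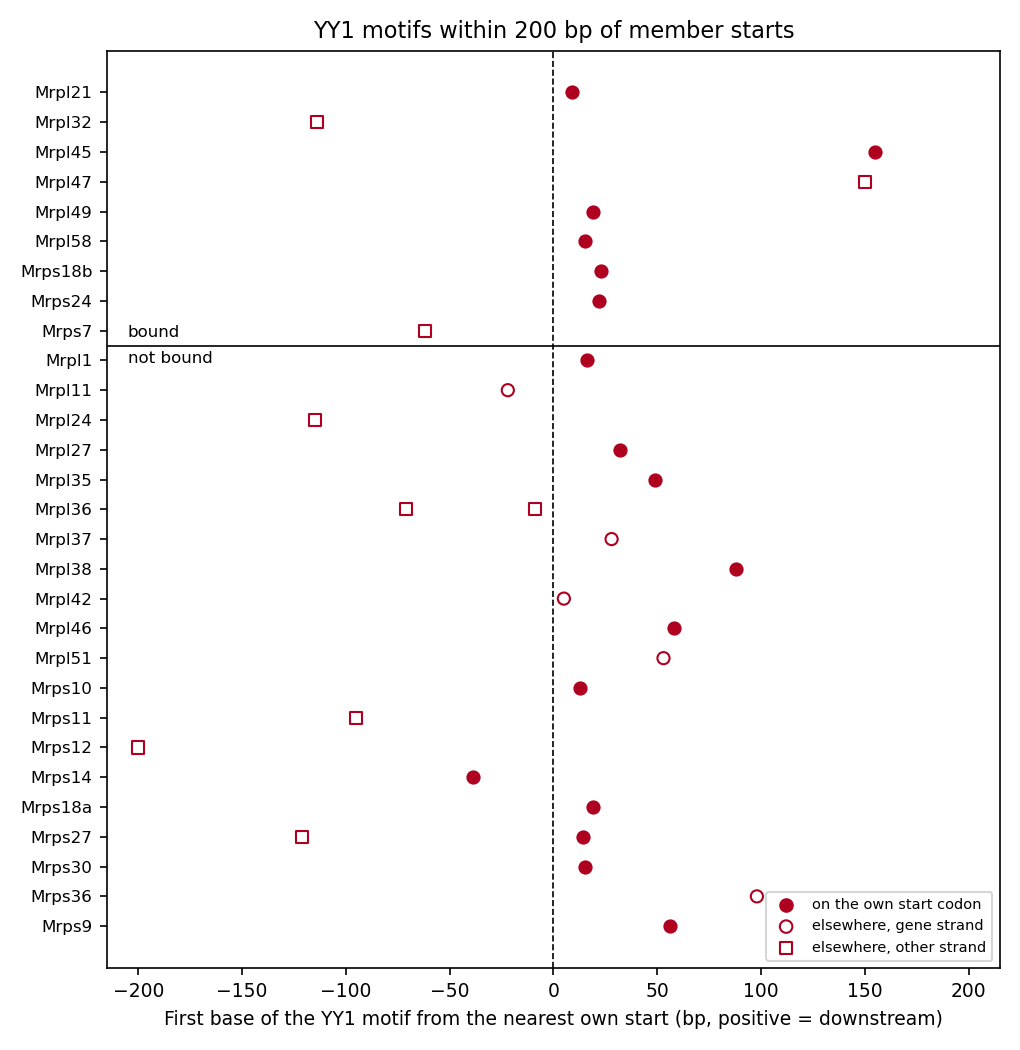
Position of each AANATGGC site within 200 bp of a start of a member (x axis, bp from the nearest start to the first base of the site in the direction of the gene) for 9 bound members (above the line) and 20 members without a peak (below). Filled points lie on the start codon of the member and open points elsewhere, with squares on the strand opposite to the gene; filled points make up 6 of 9 sites in bound and 11 of 22 sites in unbound members.

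Motifs of other factors known at housekeeping promoters were searched on both strands in the same 300-base promoters. The ETS motif CCGGAAG, which GABP binds, was present at 35.9% of members, 11.2% of all protein-coding genes and 19.5% of genes with a CpG-rich promoter. It was present in 9 of 29 bound members (31.0%) and in 19 of 49 unbound members (38.8%). Examples are Mrpl58 and Mrps18b, which also hold AANATGGC, and Mrpl3, Mrpl17 and Mrps26, which do not. The NRF1 motif CGCATGCG was found at 5 members, Mrpl9, Mrpl10, Mrpl17, Mrpl22 and Mrpl32 (6.41%), beside 2.69% of all genes and 4.61% of genes with a CpG-rich promoter. ACTACAA, bound by ZNF143, was found at 7.69% of members, 3.77% of all genes and 3.90% of genes with a CpG-rich promoter. Of the 6 members with it 1, Mrpl34, was bound by YY1, beside 134 of 828 protein-coding genes with it. GGGCGG, the motif of SP factors, was present at 48.7% of members and 44.9% of all genes, although 73.2% of the genes with a CpG-rich promoter hold it. CCAAT, bound by NFY, was present at 34.6% of members, 38.8% of all genes and 37.6% of genes with a CpG-rich promoter. In this window AANATGGC was present at 20.5% of members, 6.11% of all genes and 8.66% of genes with a CpG-rich promoter. These matches describe letters in the promoters and not occupied sites.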

How the data were processed

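YY1 ChIP-seq was performed on pooled MuSCs with 1 YY1 library and 1 background library. Per the study's methods and the submitters' processing notes, reads were trimmed, filtered, mapped to mm10 with Bowtie2, reduced to non-redundant reads and used for peak calling with MACS2 at a p-value limit. Versions are not given in the sources used here. The deposited peak list gives the fold enrichment as a ratio (fragments at the summit plus 1, over local background plus 1), the −log10 p-value and q-value, an integer score that was not used, and the summit offset, all computed by the authors' peak caller. The p-values compare 1 pair of libraries and do not describe variation between animals. More reads would let weaker sites reach that limit.

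For each peak, the deposited ratio and −log10 p-value were solved for a whole fragment number under the summit and for the local background, within 0.001 on the −log10 scale for 100% of 4681 peaks. Summits were placed against all basic transcript starts of GENCODE M21 (GRCm38, the sequence of mm10), leaving out mitochondrial DNA. Where a gene had several peaks the strongest was used. Promoter sequence was read around the most upstream basic transcript start, since the start of the gene record differs from every basic transcript start in 9 members, by up to 17004 bp at Mrpl33. Sequences come from the GRCm38 reference, not from the reads. By rule, the members given with values are the 10 highest and 3 lowest bound members, those with a motif near the summit, those sharing a peak with another member (none did), and those with summits 500 to 1000 bp (bound) or up to 5000 bp (not bound) away. Other members given with values, such as those sharing a peak with a gene outside the family, the closest summits or a start codon in the motif, were chosen after their values were seen. Mtres1 and Trmt61b of the gene lists were not found among the annotated symbols. The members and lists were chosen with earlier results of these data known.

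Motif search and fragment recovery were tested on simulated data, where all 200 motifs and 1000 fragment numbers were recovered. For summit placement only the arithmetic of 2000 simulated distances was reversed. That check could not fail, so the placement itself was not tested. Tools were samtools 1.23.1 and, under Python 3.11.15, pysam 0.24.0 for sequence, scipy 1.17.1 for intervals, pandas 2.3.3 and numpy 2.4.6 for tables and matplotlib 3.10.9 for plots. Other promoter windows, start sites, peak limits, motif forms and partner distances were tried as alternatives.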

Additional observations from a re-analysis of the deposited data

How the results depend on the processing

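Under 7 other rules for a bound gene, 18 to 29 members were bound, and their share was 1.85 to 2.07 times that of all protein-coding genes. With a fold enrichment of at least 5 only, 18 members (23.1%, all genes 11.1%) and 14 of the large subunit were bound. With a window of 1000 bp upstream to 100 bp downstream, 3 genes of the small subunit were bound, and Mrps5 and Mrps24 were lost because their summits lie farther downstream. The share of the small subunit was 0.791 to 1.38 times that of all genes over these rules, and that of the large subunit 2.42 to 2.71 times. With mitoribosome proteins of other symbols added, an alternative chosen after the data were seen, 8 genes of the small subunit were bound (26.7%). The count of member peaks with the motif changed with each alternative. It was 1 within 50 bp (3.45%, all promoter peaks 3.94%), 8 within 250 bp (27.6%, 15.8%), 9 in the whole peak (31.0%, 14.9%), 1 for AAGATGGC only (3.45%, 4.05%) and 14 for the core ATGGC (48.3%, 30.6%), so the comparison with all peaks depends on the window. The medians of fold enrichment and distance and the count of bound members with a divergent partner (13 to 16) kept within the spread or 1.5 times. With the gene record start for the promoter window, an alternative chosen after the data were seen, 64 members in place of 71 had a CpG-rich promoter. No paired analysis was possible because the YY1 group holds a single library. The number of fragments, 10 to 24 at member summits, limits how well single peaks can be ranked, and no replicate could be left out.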
